A study of Mus musculus with 7 samples.

Results

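Fatty acid uptake and mitochondrial beta-oxidation were followed through 34 genes, out of 23337 gene symbols counted in embryonic mouse left ventricle (embryonic day 12.5). The genes were chosen by name for their place in the pathway, with earlier results of these data known. All 34 were present in the count table and all 34 passed the filter on low counts, which left 14691 genes tested. The 2 embryos labelled mutant were Tbx5flox/flox and the 5 controls Tbx5+/+. All 7 also carried the allele Gt(ROSA)26Sortm1(cre/ERT2)Tyj, and the mothers of both groups were given tamoxifen at E11.5. That allele places the tamoxifen-activated recombinase CreERT2 at the Rosa26 locus, which is active in nearly all cell types, so that the design does not restrict deletion of the T-box transcription factor gene Tbx5 to heart muscle cells. RNA of each ventricle was selected by its poly(A) tail and sequenced, and the question was which transcripts differ between the groups 1 day after tamoxifen.

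Fatty acids reach heart muscle cells from lipoproteins cleaved by lipoprotein lipase, cross the membrane with the help of CD36 and transport proteins, and are carried in the cytosol by FABP3. Acyl-CoA synthetases couple them to coenzyme A, the carnitine shuttle moves them into mitochondria, and each turn of beta-oxidation then shortens the chain through a dehydrogenase, a hydratase, a second dehydrogenase and a thiolase. Malonyl-CoA, made by acetyl-CoA carboxylases and removed by malonyl-CoA decarboxylase, inhibits entry at carnitine palmitoyltransferase 1. The embryonic heart is known to rely mainly on glycolysis and lactate, and fatty acid oxidation becomes its main fuel source after birth.

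Library totals were 20268208 and 22680280 counts in mutant replicates 1 and 2, and 20385656 to 24440806 in the controls. Levels are given in CPM, read counts divided by the TMM-scaled library total on the usual CPM scale. Tbx5 itself was at 93.9 and 113.8 CPM in the libraries labelled mutant, against 64.2 to 98.3 CPM in the controls, so it was not lower there. Exons that remain after recombination are counted too, and the deletion cannot be read from this value. Every direction below therefore rests on the labels. The X-inactivation RNA Xist was at 0.689 and 1.09 CPM in control replicates 1 and 3 and at 311 to 509 CPM in the other 5 libraries, both labelled mutant among them. The labels name no litter or batch and do not tell whether embryos were littermates. P-values set the difference between the groups against the spread within them, part of which may be technical. They cannot tell a difference by genotype from one by litter or batch.

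Of the 34 genes, 2 rose at an adjusted p of 0.05 or less, Acacb and Crat, and 0 fell, by edgeR's quasi-likelihood test, with Benjamini-Hochberg adjustment across every gene tested. In bulk tissue, fewer cells of a type and less RNA per cell cannot be told apart. The same threshold called 1.36% of all 14691 genes, 0.463% as higher and 0.899% as lower. At an unadjusted p of 0.05 or less, 9 members were higher and 2 lower, against a background of 17.6% of all genes in either direction, 8.09% higher and 9.52% lower. DESeq2 called 7 members higher and 1 lower, where it called 4.14% of 18932 genes, a base that includes genes removed elsewhere by the filter on low counts. Genes without an adjusted p were counted there as not called. By limma-voom, 2 members were called higher and 0 lower, with 0.776% of the 14691 genes called. An adjusted p of 0.1 or less was reached by 5 members, against 3.99% of all genes. For 12 members both libraries labelled mutant exceeded every control (9.73% of all genes), and for 2 members both were below every control (10.4% of all genes). Together these were 41.2% of the members, and the groups did not overlap for 20.2% of all genes. The median log2 fold change of the members was 0.15, against -0.0080 over all genes tested. Of the 34, 25 were above 0, against 48.6% of all genes. Since the members were chosen with earlier results of these data known, these shares describe the list and do not test it. The number of called members depended on single libraries, and so did the share called of all genes. Without mutant replicate 2 it was 0 members (0.0802% of all genes), and without mutant replicate 1 it was 1 member (1.42%). It was 1 member without control replicate 1, 2 or 3 (0.534%, 0.492% and 1.03% of all genes), 3 without control replicate 4 (1.77%) and 4 without control replicate 5 (1.88%). With control replicate 5 and mutant replicate 2 both left out it was 0 (0.349%). The log2 fold change itself moved by over 1.5 times, or turned, for 18 of the 34 genes when 1 library was left out, for 17 of them with a library labelled mutant and for 11 with a control. Near 0 small shifts cross this limit, as for Eci1 at 0.0025 and Decr1 at -0.017, while Acsl1 at 0.43 was also among the 18.

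**Figure D1:**
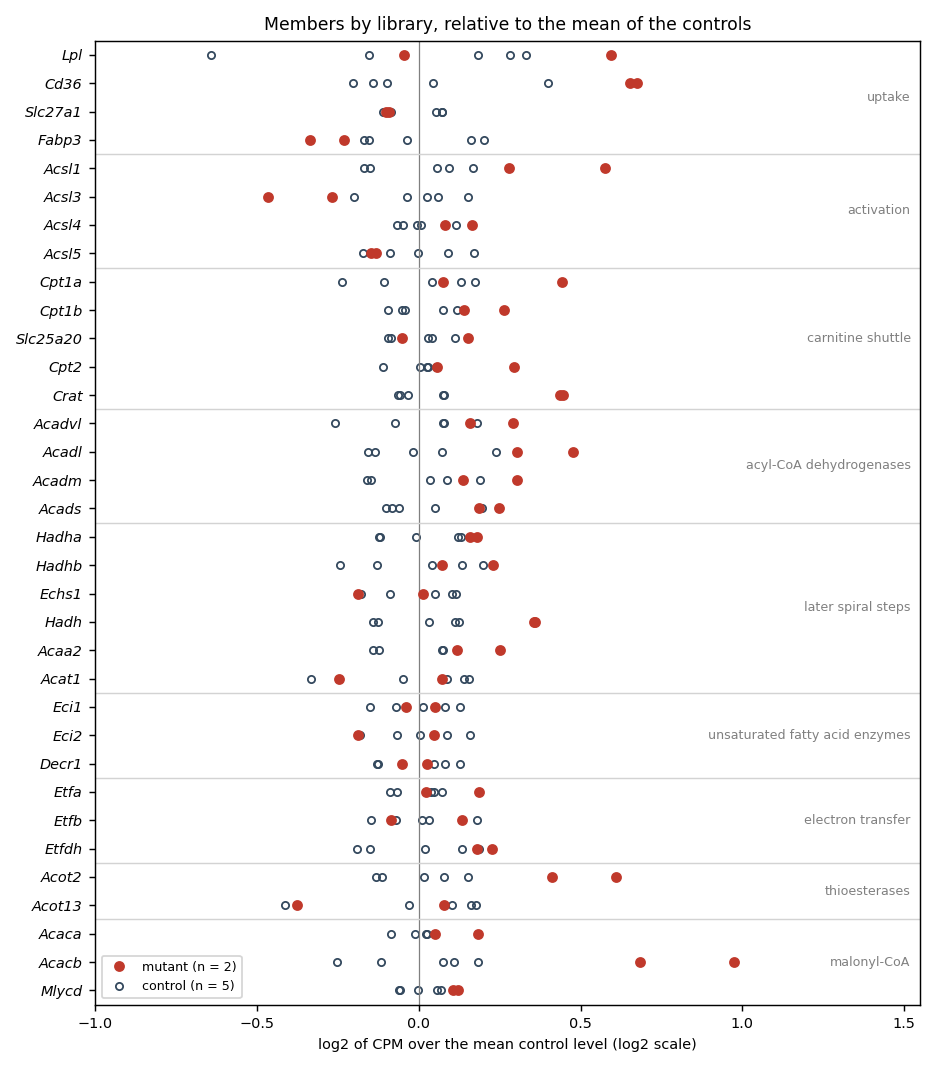
Each row is a gene and each point a library, as the log2 of its CPM over the mean control level (mean of log2 values), with filled points for the 2 libraries labelled mutant and open points for the 5 controls; grey lines separate the roles in the pathway. Acacb, Cd36, Acot2, Crat and Acsl1 stand to the right of their controls and Acsl3 and Fabp3 to the left, while the enzymes for unsaturated fatty acids and the electron transfer flavoproteins overlap.

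Sequence upstream of the start site is shown for Acacb, the member with the largest change, for Cd36, for the synthetase genes Acsl1 and Acsl3, whose values ran in opposite directions, and for the gene pair Hadha and Hadhb, which share 1 upstream region. The bases are from RefSeq on GRCm38.p6 and end just before the start site that the table of promoters lists, where Acsl1 has a second window that is not shown. For Acacb and Cd36 the only listed start is internal, 19.2 kb and 53.1 kb inside the annotated gene, so these 2 windows are not the sequence before the gene's own 5′ end. Capitals mark matches, on either strand, to the nuclear receptor core site AGGTCA and to the GC box GGGCGG.
Acacb, chr5:114165268-114165517, plus strand: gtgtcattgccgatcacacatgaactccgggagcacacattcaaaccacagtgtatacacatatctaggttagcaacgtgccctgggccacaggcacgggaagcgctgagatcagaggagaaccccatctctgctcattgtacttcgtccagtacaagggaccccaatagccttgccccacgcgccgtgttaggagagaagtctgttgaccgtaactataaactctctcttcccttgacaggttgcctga
Cd36, chr5:17835897-17836146, minus strand: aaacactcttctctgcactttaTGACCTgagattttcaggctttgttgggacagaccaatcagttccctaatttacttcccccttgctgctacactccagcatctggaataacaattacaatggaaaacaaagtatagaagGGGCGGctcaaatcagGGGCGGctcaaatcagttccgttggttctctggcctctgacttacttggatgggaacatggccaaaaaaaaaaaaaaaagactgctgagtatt
Acsl1, chr8:46470787-46471036, plus strand: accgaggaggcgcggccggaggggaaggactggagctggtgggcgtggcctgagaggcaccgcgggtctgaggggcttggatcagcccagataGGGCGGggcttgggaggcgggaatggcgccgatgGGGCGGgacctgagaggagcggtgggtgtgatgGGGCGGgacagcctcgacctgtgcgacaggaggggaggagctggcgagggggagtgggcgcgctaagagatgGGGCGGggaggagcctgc
Acsl3, chr1:78657575-78657824, plus strand: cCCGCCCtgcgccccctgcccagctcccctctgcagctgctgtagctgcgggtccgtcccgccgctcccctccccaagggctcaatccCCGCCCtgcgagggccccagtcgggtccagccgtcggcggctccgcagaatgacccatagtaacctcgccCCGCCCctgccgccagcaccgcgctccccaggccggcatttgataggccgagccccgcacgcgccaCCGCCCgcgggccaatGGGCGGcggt
Hadhb, chr5:30155003-30155252, plus strand: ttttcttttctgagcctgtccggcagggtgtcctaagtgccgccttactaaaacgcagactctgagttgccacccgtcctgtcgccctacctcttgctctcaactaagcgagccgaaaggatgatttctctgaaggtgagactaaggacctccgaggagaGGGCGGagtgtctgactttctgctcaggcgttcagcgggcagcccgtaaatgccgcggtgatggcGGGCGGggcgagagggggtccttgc

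The table of promoters held 27 of the 34 genes, and for 5 of the 27 the listed start lay over 1 kb inside the gene (Acaca, Acacb, Acsl5, Cd36 and Eci2). Within the 250 bases before a listed start, 16 of the 27 genes (59.3%) held GGGCGG, against 32.7% of all 32851 windows in the table, and 5 (18.5%) held AGGTCA, against 14.0% of all windows. Those 5 were Cd36, Cpt1a, Acadm, Acadvl and Echs1. AGGTGT, the core of the T-box site, was present in 2 of the 27 (7.41%), Acsl5 and Mlycd, against 11.8% of all windows. The NRF1 motif was found in Etfb and Etfdh (7.41%, against 3.74%), and the extended site TNAAGGTCA of estrogen-related receptors in 0 of the 27, against 1.14%. All motifs were searched on both strands, AGGTCA lies within TNAAGGTCA, and a gene with more than 1 window was counted once if any window matched. The background instead counts single windows and was not limited to expressed genes, so the shares have unlike bases. The overlapping windows of Hadha and Hadhb share 1 GC box, which counts for both genes. None of the 5 motifs was present in the windows of Acot2, Etfa and Fabp3 or in the internal windows of Acacb and Acaca, the second 65.8 kb inside its gene, and that of Acsl3 held 5 GC boxes. Such a match describes letters only and is not evidence of binding.

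Among the uptake genes Cd36 was higher and Fabp3 lower. Cd36, the membrane transporter of long-chain fatty acids, was at 194.8 and 191.9 CPM in the libraries labelled mutant, against 125.8, 110.7, 114.0, 160.9 and 105.9 CPM in control replicates 1 to 5. Both libraries labelled mutant lay above all controls, of which replicate 4 was the highest. The log2 fold change was 0.65 (SE 0.14), a 1.57-fold difference, and its adjusted p of 0.0543 by the edgeR quasi-likelihood test just missed the threshold. Cd36 was called in 4 of 17 alternative fits. It was not called with a covariate for sex, by Xist (edgeR adjusted p = 0.182), or among the libraries with Xist (0.234). Without control replicate 4 it passed (log2 fold change 0.77, adjusted p = 0.00451 by the same test), as it did under DESeq2 (0.00178), and without mutant replicate 2 the edgeR adjusted p was 0.294. Fabp3, the heart form of the cytosolic fatty acid binding protein, was at 392.3 and 364 CPM in the libraries labelled mutant, against 514, 409, 448, 529 and 414 CPM in the controls. Both were below every control, but control replicates 2 and 5 came close, and the log2 fold change of -0.29 (SE 0.12) did not pass (edgeR adjusted p = 0.245). Of the 50-base stretches of its transcript, 29.2% also occur in the pseudogene Fabp3-ps1, so reads of the gene and that copy may be hard to separate. Lpl, lipoprotein lipase, varied most among the controls, with a coefficient of variation of 25.1%, and had 221 and 343 CPM in the libraries labelled mutant against 145.7 to 286 CPM in the controls. Its direction turned without mutant replicate 2 (log2 fold change 0.27 in all libraries and -0.076 without it). The transport protein gene Slc27a1 was the lowest of the 34 at 3.98 and 4.26 CPM per kb on average in the libraries labelled mutant and in the controls.

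Of the 4 long-chain acyl-CoA synthetase genes, Acsl1 was higher and Acsl3 lower. Acsl1, the main synthetase of adult heart muscle, had 43.1 and 52.9 CPM in the libraries labelled mutant, against 37.0, 32.04, 31.6, 37.9 and 39.9 CPM in the controls. The groups did not overlap, and the log2 fold change was 0.43 (SE 0.12, edgeR adjusted p = 0.103), or 0.28 without mutant replicate 2. Acsl3, a synthetase of the endoplasmic reticulum and lipid droplets, had 80.9 and 92.8 CPM in the libraries labelled mutant, against 124.3, 109.0, 97.4, 113.8 and 116.5 CPM in the controls. Here both libraries labelled mutant were below every control, with a log2 fold change of -0.37 (SE 0.11, edgeR adjusted p = 0.111). Neither passed the threshold by edgeR, and both did by DESeq2 (adjusted p of 0.0356 and 0.0442). Per length of transcript, Acsl1 made up 21.1% ± 1.45 of the summed level of the 4 genes in the libraries labelled mutant (SD, n = 2), against 14.7% ± 0.729 in the controls (SD, n = 5). Acsl3 made up 37.8% ± 0.778 in the libraries labelled mutant and 45.7% ± 2.51 in the controls (SD, same n). Acsl3 thus held the largest share in all 7 libraries. The groups overlapped for Acsl4 (log2 fold change 0.12, SE 0.083) and Acsl5 (-0.14, SE 0.10).

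The carnitine shuttle held the second of the 2 called genes. Crat, carnitine acetyltransferase, which interconverts acetyl-CoA and acetylcarnitine, was at 163.0 and 164.2 CPM in the libraries labelled mutant, against 117.7, 115.4, 115.9, 127.3 and 127.0 CPM in the controls. The 2 values labelled mutant were nearly equal and lay clear of the narrow control range. Crat rose by a log2 fold change of 0.44 (SE 0.078), 1.36-fold, with an adjusted p of 0.0265 by the edgeR quasi-likelihood test. The call was lost without control replicate 1, 2 or 3 (edgeR adjusted p of 0.0764, 0.0767 and 0.0516) and without mutant replicate 1 or 2 (0.0633 and 0.196), while the log2 fold change stayed between 0.43 and 0.47. It was also lost with a covariate for sex, by Xist (adjusted p = 0.101) and among the libraries with Xist (0.173). Cpt1b, the muscle form of carnitine palmitoyltransferase 1, had 299 and 326 CPM in the libraries labelled mutant, against 254, 262, 264, 286 and 295 CPM in the controls. Its groups were adjacent without overlap and the log2 fold change was 0.20 (SE 0.090, edgeR adjusted p = 0.28). Most of the Cpt1b transcript, 93.0% of its 50-base stretches, is also part of a readthrough transcript annotated as Gm44502, a symbol with no row in the count table. None of the other 3 shuttle genes was called. The log2 fold change was 0.18 (SE 0.088) for Cpt2, the inner membrane palmitoyltransferase, 0.051 (SE 0.092) for the carnitine-acylcarnitine carrier Slc25a20, and 0.26 (SE 0.13) for Cpt1a, the liver form. Without mutant replicates 1 and 2 in turn it was 0.056 and 0.30 for Cpt2, -0.052 and 0.16 for Slc25a20, and 0.43 and 0.078 for Cpt1a.

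**Figure D2:**
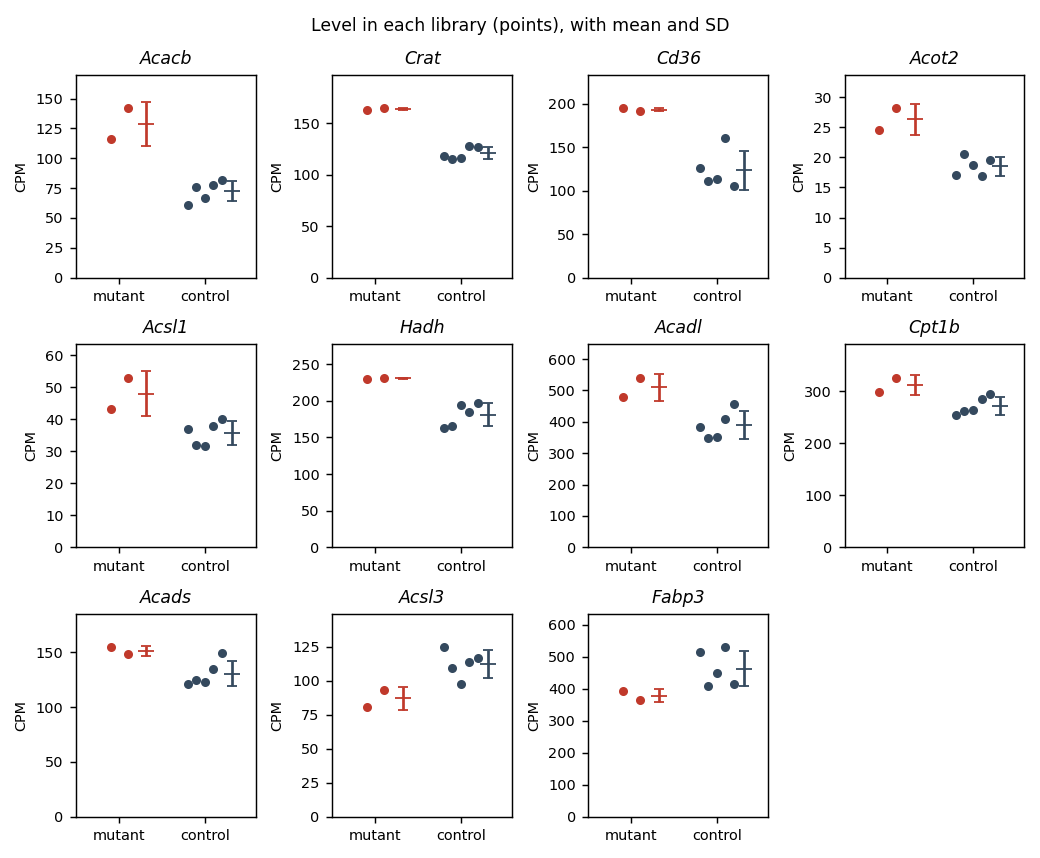
Points show the CPM of each library for the 11 members with an unadjusted p of 0.05 or less, with the mean and SD beside them; libraries labelled mutant are on the left (n = 2) and controls on the right (n = 5), and each axis starts at 0. Acads is the only panel of the 11 in which the groups overlap, and only in Acsl3 and Fabp3 are both libraries labelled mutant below all controls.

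The 4 acyl-CoA dehydrogenases, which take the first step of each turn for chains of different length, all had positive log2 fold changes, between 0.21 and 0.39, and none was called. Acadl, the long-chain enzyme, had 479 and 540.0 CPM in the libraries labelled mutant, against 383, 348, 353, 408 and 458 CPM in the controls. Both libraries labelled mutant exceeded every control, with control replicate 5 nearest to them, and the log2 fold change was 0.39 (SE 0.12, edgeR adjusted p = 0.127). With 1 library left out the adjusted p by the same test ran from 0.0463 without control replicate 5 to 0.585 without mutant replicate 2, and it was 0.356 with the covariate for sex. Acads, the short-chain enzyme, had 154.5 and 148.2 CPM in the libraries labelled mutant, against 121.4, 124.7, 122.9, 134.8 and 149.1 CPM in the controls. Control replicate 5 overlapped with the libraries labelled mutant, and the log2 fold change was 0.21 (SE 0.095, edgeR adjusted p = 0.281). For Acadvl and Acadm, the very-long-chain and medium-chain enzymes, the log2 fold changes were 0.22 (SE 0.11 each). Exons of Dvl2 on the opposite strand cover 42.9% of the exon bases of Acadvl, and the library kit does not mark strand. Among the members with values given above, such opposite exons cover at most 19.6% of these bases in Fabp3, 9.91% in Acsl1 and 8.72% in Crat. In Acsl3, exons of Utp14b on the same strand cover 5.6%.

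In the later steps the clearest difference was in Hadh, the dehydrogenase for medium and short 3-hydroxyacyl-CoA. It was at 230.6 and 231.4 CPM in the libraries labelled mutant, against 163.4, 165.4, 194.7, 184.4 and 196.7 CPM in the controls. The groups did not overlap and the controls fell into a lower pair and 3 higher libraries, with a log2 fold change of 0.35 (SE 0.096, edgeR adjusted p = 0.0999). Acaa2, the mitochondrial thiolase and the member of this step with the highest level per length, had 389 and 355 CPM in the libraries labelled mutant, against 355, 300.4, 343, 344 and 296.5 CPM in the controls. Its groups overlapped, as mutant replicate 2 equalled control replicate 1 to within 1 CPM, and the log2 fold change was 0.18 (SE 0.10). Hadha and Hadhb, the alpha and beta subunits of the trifunctional protein, stood at 0.16 (SE 0.099) and 0.14 (SE 0.12) on the same scale. Their listed start sites lie 272 bases apart on opposite strands, with the Hadhb window printed above lying wholly between them. Reads of Hadhb may be shared with a pseudogene, Gm13910, since 62.4% of its 50-base stretches also occur in other annotated transcripts. Groups overlapped for the short-chain hydratase Echs1, at a log2 fold change of -0.088 (SE 0.10), and for Acat1, the acetoacetyl-CoA thiolase, at -0.090 (SE 0.14). Both turned positive without mutant replicate 2 (0.020 and 0.072).

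For the 3 auxiliary enzymes of unsaturated fatty acids the groups overlapped, with log2 fold changes between -0.072 and 0.0025. Eci1, an enoyl-CoA isomerase, had 92.5 and 98.4 CPM in the libraries labelled mutant, against 85.7, 90.6, 103.8, 100.5 and 96.0 CPM in the controls. The libraries labelled mutant lay inside the control range, and the log2 fold change was 0.0025 (SE 0.092). Eci2 and Decr1, a second isomerase and the dienoyl-CoA reductase, were at -0.072 (SE 0.11) and -0.017 (SE 0.095). The electron transfer flavoprotein passes electrons from the dehydrogenases to the respiratory chain. Its beta subunit gene Etfb had 241.8 and 207.5 CPM in the libraries labelled mutant, against 209.7, 198.6, 249.2, 224.9 and 221.8 CPM in the controls, with full overlap and a log2 fold change of 0.025 (SE 0.10). Of its 50-base stretches, 67.3% are shared with the overlapping annotated gene Gm45233. The alpha subunit gene Etfa and the dehydrogenase gene Etfdh were at 0.10 (SE 0.087) and 0.20 (SE 0.11).

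The thioesterase genes differed from each other. Acot2, a mitochondrial enzyme that splits long-chain acyl-CoA, had 24.5 and 28.1 CPM in the libraries labelled mutant, against 17.05, 20.5, 18.7, 16.8 and 19.5 CPM in the controls. All controls lay below both libraries labelled mutant, and the log2 fold change of 0.51 (SE 0.11) had an edgeR adjusted p of 0.054. Acot2 was called in 3 of 17 alternative fits, and not with the covariate for sex (edgeR adjusted p = 0.182) or among the libraries with Xist (0.240). It passed without control replicate 5 (0.0497) and under DESeq2 (0.00461), and was 0.413 by edgeR without mutant replicate 2. A share of 27.7% of its 50-base stretches also occurs in other annotated transcripts, mostly of the neighbouring Acot1, a cytosolic thioesterase gene. Acot1 had 11.4 and 12.6 CPM in the libraries labelled mutant and 9.56 to 12.2 CPM in the controls, with a log2 fold change of 0.16 (SE 0.14). Acot13, a small thioesterase, had 110.2 and 80.5 CPM in the libraries labelled mutant, against 116.8, 102.3, 112.1, 118.1 and 78.4 CPM in the controls. Mutant replicate 2 and control replicate 5 were the low values of that gene in their groups, which overlapped.

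Malonyl-CoA metabolism held the largest change of the 34 genes. Acacb, the acetyl-CoA carboxylase of the outer mitochondrial membrane, was at 115.9 and 141.8 CPM in the libraries labelled mutant, against 60.6, 76.0, 66.6, 77.9 and 81.8 CPM in the controls. Even the lower library labelled mutant lay well above the highest control. Acacb rose by a log2 fold change of 0.83 (SE 0.12), 1.78-fold, with an adjusted p of 0.0134 by the edgeR quasi-likelihood test. The call held in 15 of 17 alternative fits and was lost without mutant replicate 2 (log2 fold change 0.69, adjusted p = 0.175) and with control replicate 5 and mutant replicate 2 both left out (0.73, adjusted p = 0.0699). Acaca, the cytosolic carboxylase of fatty acid synthesis, was not called, at a log2 fold change of 0.12 (SE 0.079, edgeR adjusted p = 0.471). Mlycd, malonyl-CoA decarboxylase, had 25.7 and 25.95 CPM in the libraries labelled mutant, against 24.8, 22.8, 22.9, 25.0 and 23.8 CPM in the controls. Its groups did not overlap, but by less than 1 CPM, and the log2 fold change was 0.11 (SE 0.089, edgeR adjusted p = 0.546).

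Ratios of 2 members within a library do not depend on how libraries are scaled. Between forms of 1 enzyme or subunits of 1 complex, 5 were compared. The pairs were drawn from members chosen with earlier results of these data known. Acacb had the largest change of the members, and Acsl1 and Acsl3 had the highest and lowest log2 fold changes of the synthetase genes. A separation of the groups in their ratios thus restates the values above and is no separate support. The ratio of Acacb to Acaca counts was 1.84 and 2.05 in the libraries labelled mutant, against 1.06, 1.21, 1.08, 1.26 and 1.36 in the controls. The mutant minus control difference was 0.71 on the log2 scale, and 52.6% of the 50-base stretches of Acaca also occur in other transcripts, those of the pseudogene Gm5182. The ratio of Acsl1 to Acsl3 was 0.533 and 0.570 in the libraries labelled mutant, against 0.297, 0.294, 0.325, 0.333 and 0.343 in the controls, a difference of 0.80 on the log2 scale. For both pairs the groups did not overlap, and the exact two-sided permutation test over 21 splits gave its smallest possible p of 0.0476, or 0.119 after Benjamini-Hochberg adjustment over the 5 ratios. The ratio of Cpt1b to Cpt1a was 5.83 and 4.93 in the libraries labelled mutant and 5.08 to 6.37 in the controls, a difference of -0.057 (exact permutation p = 0.619, adjusted 0.774). Hadha to Hadhb gave 1.09 and 1.24 in the libraries labelled mutant and 1.10 to 1.25 in the controls, a difference of 0.016 (exact permutation p = 0.952, adjusted 0.952). Etfa to Etfb gave 1.02 and 1.06 in the libraries labelled mutant and 0.898 to 1.06 in the controls, a difference of 0.079 (exact permutation p = 0.429, adjusted 0.714). In each of these 3 pairs at least 1 library labelled mutant lay inside the control range.

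**Figure D3:**
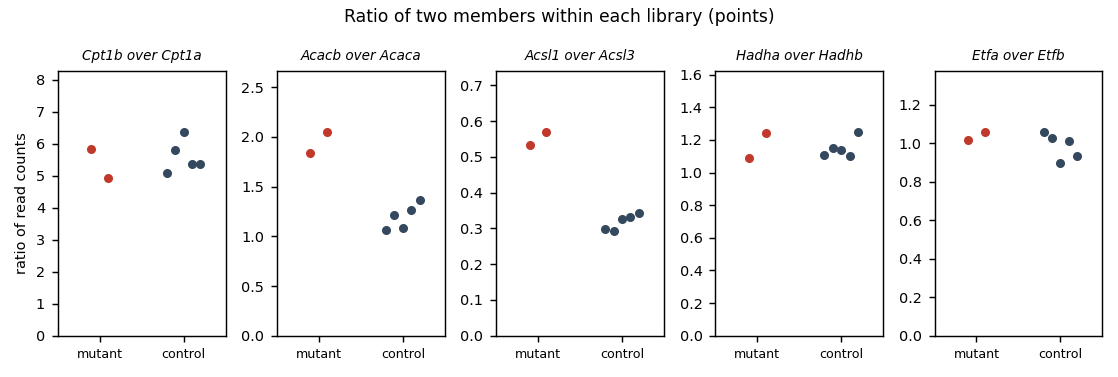
Each point is a library and each panel the ratio of the read counts of 2 genes, on axes that start at 0, with the 2 libraries labelled mutant on the left and the 5 controls on the right. The groups are apart for Acacb over Acaca and Acsl1 over Acsl3 and overlap for the 3 other pairs.

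Levels were compared between genes per kilobase of transcript. Fabp3 was the highest of the 34, at 460 ± 24.2 CPM per kb in the libraries labelled mutant (SD, n = 2) and 562 ± 67.9 CPM per kb in the controls (SD, n = 5). Acadl, Etfb, Acaa2 and Hadhb followed at 227 to 266 CPM per kb on average in the libraries labelled mutant and 203.5 to 247 CPM per kb in the controls. Among the controls Acaa2, Hadhb and Acadl, at 216, 205 and 203.5 CPM per kb, differed by less than their SDs of 18.1, 25.6 and 23.5, and Etfb lay above them at 247 ± 21.3 CPM per kb. Cpt1b stood at 108 ± 6.51 CPM per kb in the libraries labelled mutant and 94.0 ± 5.98 CPM per kb in the controls, and Cpt1a at 13.6 ± 2.43 and 11.35 ± 1.31 CPM per kb in the same order of groups. The lower end held Slc27a1, Acaca, Acacb, Acot2 and Acsl4, each under 10 CPM per kb on average in the controls, together with Acsl1. In the libraries labelled mutant Acacb was at 14.7 ± 2.09 CPM per kb, against 8.26 ± 0.995 CPM per kb in the controls.

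**Figure D4:**
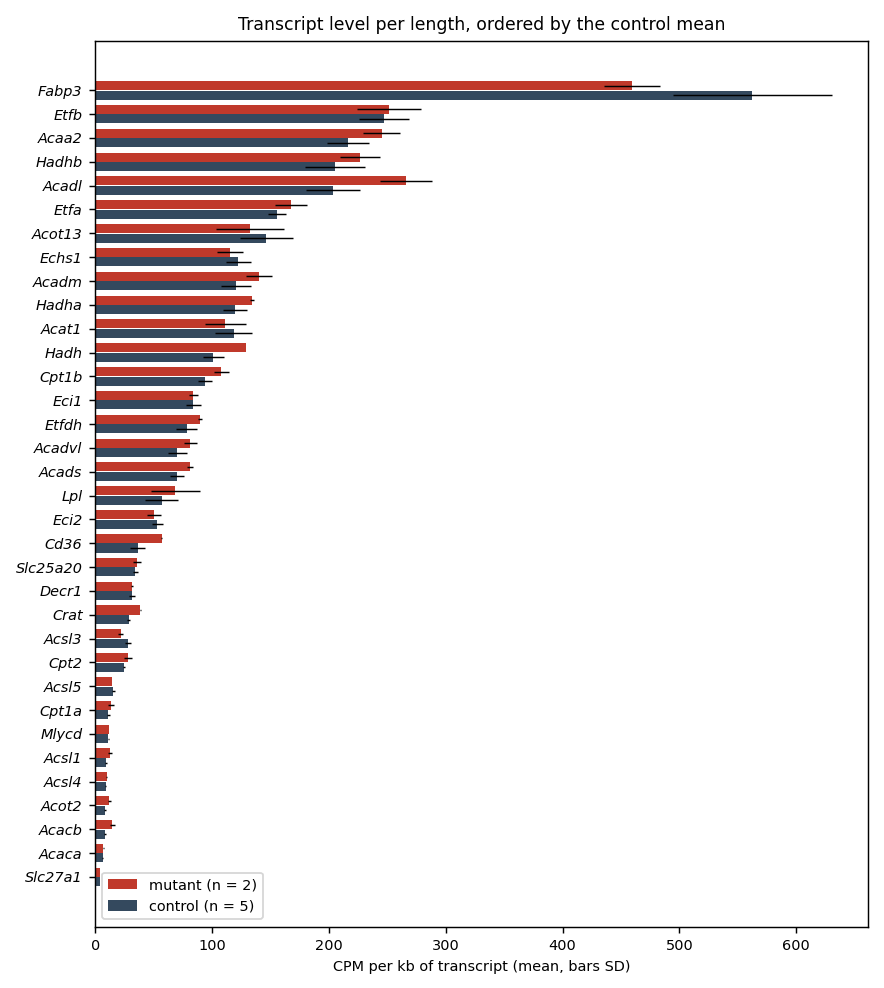
Bars give the mean CPM per kilobase of transcript for each member, with SD as error bars, for libraries labelled mutant (upper bar, n = 2) and controls (lower bar, n = 5), ordered by the control mean. Fabp3 leads in both groups, and the carboxylases Acacb and Acaca are among the lowest.

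Set against the mean control level, the median member stood at 0.15 and 0.13 on the log2 scale in mutant replicates 1 and 2, while control replicates 1 to 5 stood at 0.011, -0.088, 0.028, 0.083 and 0.012. Control replicate 4 had the highest control level for 15 of the 34 genes and control replicate 2 the lowest for 11. Summed over the 34 genes, the level was 6355 ± 57.7 CPM in the libraries labelled mutant (SD, n = 2) and 5766 ± 387 CPM in the controls (SD, n = 5), and control replicate 4, at 6280 CPM, came close to mutant replicate 2, at 6314 CPM. Within controls the median coefficient of variation of the members was 8.8%, against 10.7% over all genes tested.

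Markers of the cell types in the tissue were measured beside these values. The summed level of 13 heart muscle markers was 51650 to 55140 CPM in the libraries labelled mutant, against 44920 to 51130 CPM in the controls. Their median log2 fold change was 0.29, with 6 of 13 above every control in both libraries labelled mutant and 1, Myl2, below. Mybpc3 alone was called higher, close to the threshold (edgeR adjusted p = 0.0486). All 9 mesenchyme markers were below every control in both libraries, with a summed level of 1520 and 1535 CPM in the libraries labelled mutant, against 2546 to 4402 CPM in the controls, and 7 of them were called lower. The 10 macrophage markers summed to 121.5 to 176 CPM in the libraries labelled mutant, against 186 to 265 CPM in the controls, and 3 were called lower. The 8 epicardial markers summed to 278 to 391.5 CPM in the libraries labelled mutant and 381 to 550 CPM in the controls, with 1 called lower. The 9 markers of endothelium and endocardium summed to 742 to 1083 CPM in the libraries labelled mutant and 785 to 1153 CPM in the controls. The 8 erythroid markers summed to 5872 to 6201 CPM and 4517 to 9949 CPM in the same order of groups. Among the erythroid markers Hba-a1 and Hba-a2 had identical values in every library, so the same value enters that sum under both symbols. Neither list held a called gene, with 0 and 1 genes at an unadjusted p of 0.05 or less by edgeR. Adipocyte markers were at most 0.122 CPM in sum in any library, with Cidec and Lep at 0 in all, and 6 liver markers summed to 1.49 to 3.52 CPM in the libraries labelled mutant and 1.80 to 10.1 CPM in the controls. The part of these cell types in the differences of the fatty acid genes was not tested.

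Genes of related pathways were taken from lists made beside the members. Of 14 tested genes of other lipid uptake and storage, 0 were called by edgeR, with 0 higher and 2 lower at an unadjusted p of 0.05 or less and a median log2 fold change of -0.17. The gene of lowest p among them was Plin2, a lipid droplet coat protein, at 75.1 and 59.3 CPM in the libraries labelled mutant against 78.5 to 95.8 CPM in the controls (log2 fold change -0.42, SE 0.11, edgeR adjusted p = 0.0982). Of 15 peroxisomal beta-oxidation genes, 0 were called, 1 was lower at that unadjusted p, and the median was 0.011. That gene was Pecr, a peroxisomal enoyl-CoA reductase, at -0.34 (SE 0.11). Among 6 tested genes of ketone bodies and of the PPAR response, 0 were called, 1 was higher and 1 lower at that unadjusted p, and Pdk4, a kinase that inhibits pyruvate dehydrogenase, had the lowest p, with 44.2 and 50.2 CPM in the libraries labelled mutant against 34.9 to 39.5 CPM in the controls (log2 fold change 0.34, SE 0.092, edgeR adjusted p = 0.0999). The median of that list was 0.14. Other mitochondrial acyl-CoA and carnitine genes had a median of -0.0044 with 0 of 15 called and 1 higher and 2 lower at the unadjusted p, led by the dehydrogenase gene Acad10 at 0.73 (SE 0.25). Of 11 fatty acid synthesis genes 0 were called and 3 were higher at the unadjusted p, led by Srebf2, a sterol-responsive transcription factor, at 0.36 (SE 0.083, edgeR adjusted p = 0.0656). Among 13 tested regulators, 1 rose, the coactivator gene Ppargc1b, at 20.1 and 20.04 CPM in the libraries labelled mutant against 11.0 to 15.1 CPM in the controls (log2 fold change 0.62, SE 0.13, edgeR adjusted p = 0.0464), and the median of the list was 0.22. At the unadjusted p, 4 regulators were higher and 1 lower. The lower one, named after its values were seen, was Pparg, a nuclear receptor of fat storage genes, at 0.743 and 0.875 CPM in the libraries labelled mutant against 1.36 to 2.11 CPM in the controls (log2 fold change -0.96, SE 0.31, edgeR adjusted p = 0.144).

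**Figure D5:**
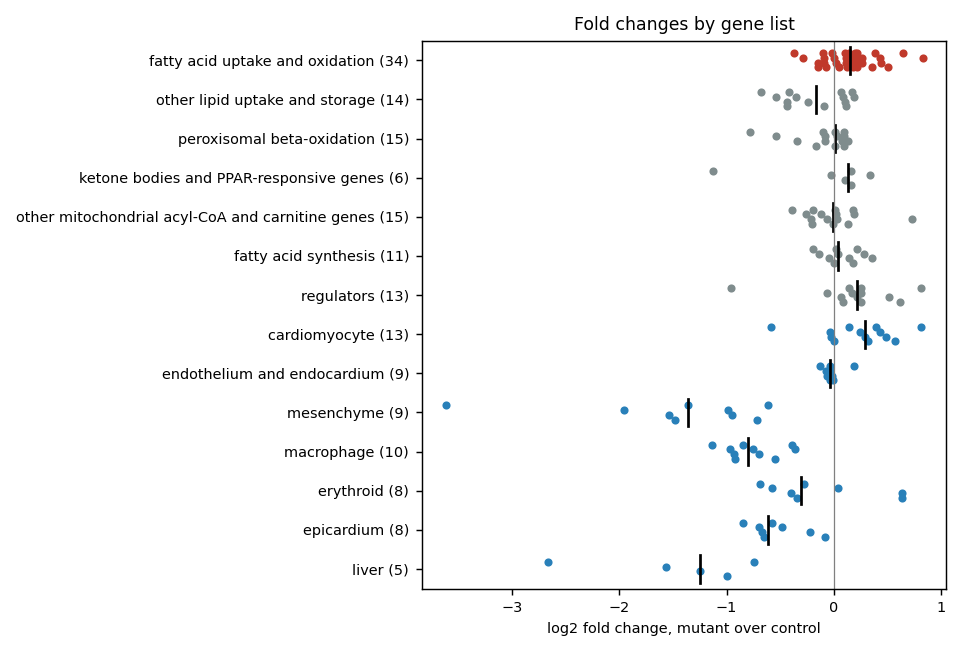
Each point is a gene, placed by its log2 fold change of mutant over control, with the number of genes tested in brackets and a black line at each list's median; the 34 members are in red, other lipid metabolism in grey and cell type markers in blue. The members centre on 0.15 and the heart muscle markers on 0.29, and the mesenchyme markers all lie below 0.

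The authors' deposited table of significant genes lists 668 symbols, 2.86% of those in the count table, and 6 of the 34 members are among them. All 668 are among the 14691 genes tested here, as are all 34 members, so the share of tested genes is higher than 2.86%. In the authors' deposited table the log2 fold changes are 0.82 for Acacb, 0.64 for Cd36, 0.50 for Acot2, 0.43 for Crat, 0.42 for Acsl1 and -0.37 for Acsl3. Their false discovery rates in the authors' deposited table are 6.93e-08, 0.000846, 0.00886, 0.00298, 0.0378 and 0.047 in that order. All 668 listed genes had the same sign here, with a median absolute difference of 0.0054 on the log2 scale from the fold changes computed here. Both rest on the libraries of the same study, so this closeness is no separate support. For all 6 members the false discovery rates there are lower than the adjusted p by edgeR here, and the cause was not tested.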

How the data were processed

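Counts came from poly(A)-selected, single-end RNA sequencing libraries of 7 left ventricles, made with a TruSeq RNA kit per the labels' protocols. The deposited counts are whole numbers per gene symbol, not normalized. Per the submitters' processing notes the build is mm10, and the software named there is featureCounts, TopHat2 2.1.1, limma 3.30.13, edgeR 3.16.5 and R 3.3.2, in roles not given in the sources used here, as are the annotation, strand setting and treatment of multiply matching reads. The authors' deposited table of significant genes gives a p-value, a false discovery rate and a log2 fold change (the base was inferred by comparison with the fit made here), with the test not named per the file headers.

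Titles gave the groups and replicate numbers. In R 4.3.3, edgeR 4.0.16 kept genes by filterByExpr (minimum count 10, minimum total 15), scaled by TMM, and tested genotype, with no other term, by robust glmQLFit and glmQLFTest. The Benjamini-Hochberg adjustment ran over 14691 genes, and the threshold was 0.05. The SE is the log2 fold change divided by the square root of F. The common biological coefficient of variation was 0.128. Pairs of libraries within a group had a chi-square per degree of freedom of 10.5 to 33.6, so none was a copy. The fit was tested on simulated data. Alternatives used DESeq2 1.42.0, limma-voom 3.58.1, other scalings and filters, each library left out, the replicate block, and sex read from Xist (limit 10 CPM). Of the cell type and pathway symbols, Perm1, Hbb-bt and Hbb-bs had no row.

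Transcript lengths (longest principal transcript), exon overlaps and shared 50-base stretches came from GENCODE M21, and promoters from RefSeq. Values in every library are given for members with an unadjusted p of 0.05 or less or the highest level per length in their role, and in each pathway list for called genes or, with none, the gene of lowest p. Members and lists were chosen with earlier results of these data known. Figures used Python 3.11.15 and matplotlib 3.10.9.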

Additional observations from a re-analysis of the deposited data

How the results depend on the processing

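Across 17 alternative fits of the 34 members, 578 results in all, 532 kept their direction and their side of the threshold, 10 lost a call, 14 gained one and 22 turned direction. The median log2 fold change of the members stayed between 0.13 and 0.20 in the alternatives. The number of called members, 2, was 4 without a filter on low counts, 8 by DESeq2, 5 at an adjusted p of 0.1, 1 with a covariate for sex (by Xist) or among the libraries with Xist, 0 with control replicate 5 and mutant replicate 2 both left out, and 0 to 4 with 1 library left out. Over all genes, the main fit called 200 of 14691, and the fit without a filter on low counts called 280 of 18932. DESeq2 called 783 of 18932, the fit with the covariate for sex 60 of 14691, and that among the libraries with Xist 66 of 14502. With the replicate block 5 members were called, where 811 of all 14691 genes were. That fit has a term for each replicate number, and only numbers 1 and 2 occur in both groups. Its genotype difference thus rests on the libraries with these numbers, and the other controls do not inform it. The numbers do not pair the embryos by any label, and the deviations of same-numbered libraries correlated at 0.111 (number 1) and 0.00167 (number 2). The 2 libraries labelled mutant deviate from their mean by equal and opposite amounts, so these are not separate checks. Pairs with different numbers reached 0.34 (mutant replicate 2 with control replicate 5). These correlations cannot tell whether the numbers pair embryos. The count over all genes, 200, was 783 by DESeq2, 114 by limma-voom, 811 with the replicate block, 586 at an adjusted p of 0.1, 60 and 66 with the 2 treatments of sex, 52 with both libraries left out and 12 to 275 with 1 left out. Members that turned direction had log2 fold changes of at most 0.27 in size. With 1 library left out they ran from -0.076 to 0.55 for Lpl, -0.052 to 0.16 for Slc25a20, -0.19 to 0.020 for Echs1, -0.26 to 0.072 for Acat1, -0.033 to 0.048 for Eci1, -0.19 to 0.053 for Eci2, -0.056 to 0.032 for Decr1, -0.089 to 0.14 for Etfb and -0.39 to 0.073 for Acot13. With both libraries left out Lpl was at -0.040, Eci1 at -0.032 and Eci2 at 0.0080. Eci1 was at -0.0032 with the sex covariate, and Decr1 at 0.054 with it, 0.058 among the libraries with Xist and 0.00975 with the replicate block. The ratio differences ran from -0.073 to 0.11 for Hadha over Hadhb and from -0.18 to 0.065 for Cpt1b over Cpt1a with 1 library left out. The causes were not tested. With 2 libraries labelled mutant, leaving out 1 leaves a lone sample that is assumed to vary like the controls.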

Other observations

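Ppara, a nuclear receptor of fatty acid oxidation genes, was chosen after its values were seen. It was at 9.51 and 12.7 CPM in the libraries labelled mutant, against 5.98, 7.74, 5.45, 6.83 and 5.66 CPM in the controls (log2 fold change 0.81, SE 0.18, edgeR adjusted p = 0.0538). Both libraries labelled mutant lay above the control range, and the gene did not pass the threshold.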
